A study of Mus musculus with 9 samples.

Results

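The genes described here are 35 genes of the cell cycle, 12 that act in DNA replication and 23 that act in mitosis. Each was taken by its symbol from the 22173 genes listed in every library, so a gene entered by name and not by its level. All 35 were found, and all 35 passed the filter on low counts that left 12094 genes for testing. The replication genes are Mcm2, Mcm3, Mcm4, Mcm5, Mcm6, Mcm7, Cdc6, Pcna, Rrm1, Rrm2, Tyms and Tk1. The mitosis genes are Mki67, Top2a, Cdk1, Ccna2, Ccnb1, Ccnb2, Plk1, Aurka, Aurkb, Birc5, Cdca8, Bub1, Bub1b, Cdc20, Ube2c, Cenpe, Cenpf, Kif11, Kif20a, Kif23, Tpx2, Nusap1 and Prc1.

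A dividing cell copies its DNA in S phase and separates the copies in mitosis, and each step draws on its own set of transcripts. The replication genes are transcribed mainly around the entry into S phase by E2F factors, and the mitosis genes mainly in G2 and mitosis through a promoter element called the CHR, which complexes of the MuvB family bind. Mature neutrophils do not divide, while their precursors in the bone marrow, from the myeloblast to the myelocyte, do. In bulk RNA such as this, fewer cycling cells and less of each RNA per cell cannot be told apart.

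RNA sequencing was done on wild-type primary neutrophils from mouse bone marrow, kept for 2 days inside GelMA, a hydrogel of methacrylated gelatin whose stiffness can be tuned. The groups were a middle gel of 2.6 kPa and a high gel of 5.7 kPa, each set against a low gel of 1.5 kPa that served as control, with 3 libraries per gel and 9 in all. By its title the series is about the effect of stiffness on neutrophil polarization. The labels leave out the age and sex of the mice, the purity of the cells and whether replicates came from different animals or cultures, so the p-values describe variation among these 9 libraries, and that variation may be technical.

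Libraries held 13.2 to 19.5 M counts, and the 35 genes together 6815 to 18009 counts per library. The lowest count was 14, for Ccnb1 in the middle gel. In each gel the library numbered replicate 1 stood apart: the chi-square of its counts against replicate 2 or 3, divided by the degrees of freedom, was 138 to 203, while that of replicate 2 against 3 was 5.03 to 11.3. Every gel has 1 library of each number, so tests were run on the gel alone and with a block for the replicate number, and results are also given for replicates 2 and 3 alone. Between gels, the fit on the gel alone was planned as the main test and the block as its alternative. Values of single genes are from the fit with the block unless another fit is named. On the gel alone 0 of the 35 were called between gels. Levels are CPM, counts scaled to a common library total and by TMM, a factor that evens out most genes between libraries, and sets of 3 values are in the order of replicates 1, 2 and 3. A gene was called changed at a Benjamini-Hochberg adjusted p under 0.05 over all genes tested by edgeR's quasi-likelihood test, and "fell" and "rose" are used for called genes.

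Per kilobase of exon, Pcna was by far the most abundant of the 35, with a mean over the 9 libraries of 123 CPM per kb. It was followed by Mki67 with 14.1, Top2a with 9.80, Mcm7 with 9.48, Ube2c with 9.31 and Mcm3 with 8.69 CPM per kb. The least abundant were Tyms with 0.507 and Cenpf with 0.770 CPM per kb. No member was absent from any library.

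The promoters of mitosis and replication genes differed in their shares of CHR and E2F motifs, while CCAAT boxes were frequent in both. The promoters, from RefSeq on GRCm38.p6, span 300 bases, 250 before and 50 after the annotated start, and 30 of the 35 genes had an entry (11 replication and 19 mitosis genes). The CHR letters TTTGAA, searched on both strands like the other motifs, were in 14 of 19 mitosis promoters (73.7%), in 1 of 11 replication promoters (9.09%, that of Mcm2) and in 18.1% of all 27025 promoters. An E2F motif (TTGGCGC or TTCGCGC or TTGCCGC or TTCCCGC) was in 3 of 19 mitosis promoters (15.8%), 7 of 11 replication promoters (63.6%) and 9.69% of all. The CCAAT box, letters CCAAT and the site of the factor NF-Y, was in 17 of 19 mitosis promoters (89.5%), 8 of 11 replication promoters (72.7%) and 37.9% of all. Every mitosis promoter with a CHR also held a CCAAT box (14 of 19, 73.7%, against 7.12% of all promoters). E2F and CCAAT matches overlapped in Mcm7 and Ccnb1, 2 of the 10 genes with an E2F match. A match describes letters and not a bound site.

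The promoters of the most abundant genes of each role, by CPM per kb, are printed 5′ to 3′ on the gene's own strand, with matches in capitals. Pcna (chr2:132253131-132253430, minus strand), the clamp gene that was higher in replicate 1, held a CCAAT box in reverse. Mcm7 (chr5:138171834-138172133, minus strand), the other gene higher in replicate 1, held CCAAT boxes and E2F motifs, and its last run of capitals is an overlap of both.
Pcna: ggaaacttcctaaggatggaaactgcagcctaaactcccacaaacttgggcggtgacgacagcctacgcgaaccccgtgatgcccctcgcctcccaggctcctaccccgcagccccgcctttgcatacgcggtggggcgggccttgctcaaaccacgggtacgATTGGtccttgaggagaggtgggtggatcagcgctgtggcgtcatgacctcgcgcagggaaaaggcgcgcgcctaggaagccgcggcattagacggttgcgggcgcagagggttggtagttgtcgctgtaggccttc
Mcm7: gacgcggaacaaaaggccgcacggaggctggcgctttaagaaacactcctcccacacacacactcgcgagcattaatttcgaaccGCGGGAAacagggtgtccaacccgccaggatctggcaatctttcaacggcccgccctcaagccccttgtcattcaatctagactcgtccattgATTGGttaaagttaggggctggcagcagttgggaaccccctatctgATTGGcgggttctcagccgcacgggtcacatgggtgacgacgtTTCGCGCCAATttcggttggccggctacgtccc
Mki67 (chr7:135716330-135716629, minus strand) held CHR, CCAAT and E2F letters, with the CHR matches starting 116 and 98 bases before the start. Top2a (chr11:99024140-99024439, minus strand), which had the smallest p of the 35 in high against low, held CHR matches 179 and 23 bases before the start and repeated CCAAT boxes.
Mki67: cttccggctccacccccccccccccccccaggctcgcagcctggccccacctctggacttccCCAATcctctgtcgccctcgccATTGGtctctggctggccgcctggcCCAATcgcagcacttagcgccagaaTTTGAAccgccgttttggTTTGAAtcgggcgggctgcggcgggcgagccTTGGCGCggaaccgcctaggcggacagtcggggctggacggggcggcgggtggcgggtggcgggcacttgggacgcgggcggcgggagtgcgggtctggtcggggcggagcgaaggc
Top2a: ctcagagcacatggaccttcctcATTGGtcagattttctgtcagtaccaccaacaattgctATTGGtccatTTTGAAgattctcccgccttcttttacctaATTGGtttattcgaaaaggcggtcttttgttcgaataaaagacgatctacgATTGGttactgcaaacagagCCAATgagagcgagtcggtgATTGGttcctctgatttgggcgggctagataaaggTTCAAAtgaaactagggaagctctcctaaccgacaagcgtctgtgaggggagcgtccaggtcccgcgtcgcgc

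Summed over the 23 genes, mitosis transcripts were less abundant in the high gel than in the low gel within every replicate number. Within replicate 1, 16 of the 23 genes were lower in the high gel. The 23 mitosis genes summed to 165, 637 and 642 CPM in low gels, 138, 552 and 535 in middle gels and 123, 389 and 412 in high gels. The high-gel sum was 0.745, 0.611 and 0.642 times the low-gel sum within replicates 1, 2 and 3. Mki67 was the largest part of these sums, with 60.5, 203 and 214 CPM in low gels and 43.1, 139 and 183 in high gels. The 12 replication genes summed to 372, 339 and 330 CPM in low gels, 366, 303 and 318 in middle gels and 427, 312 and 260 in high gels. Here the high-gel sum was 1.15, 0.921 and 0.787 times the low-gel sum within replicates 1, 2 and 3. High was thus above low in replicate 1 and below it in the others. Without Pcna the other 11 summed to 144, 229 and 232 CPM in low gels, 137, 195 and 203 in middle gels and 154, 186 and 151 in high gels.

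**Figure D1:**
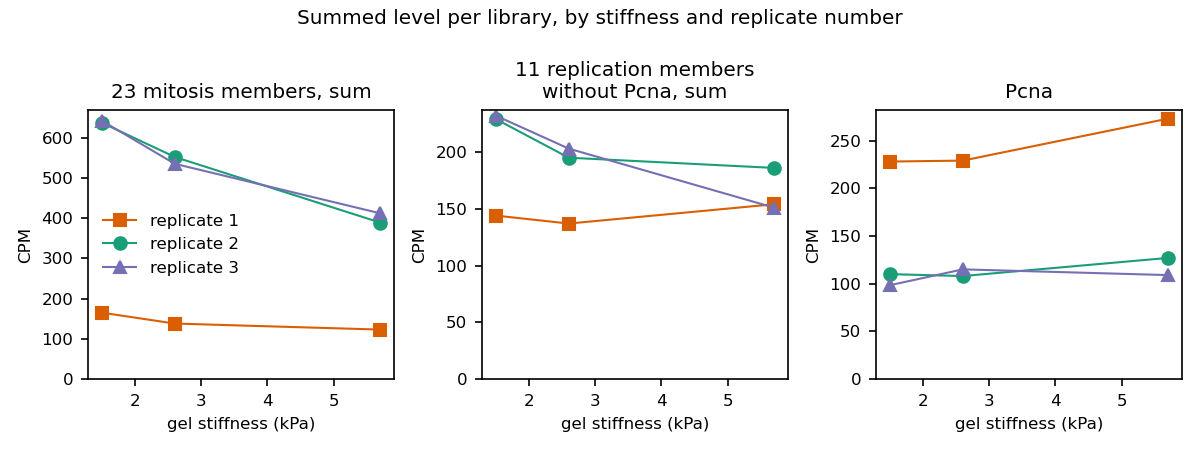
Summed CPM of the 23 mitosis genes (left), of the 11 replication genes other than Pcna (middle) and CPM of Pcna (right) in each of the 9 libraries, against gel stiffness in kPa, with 1 line and colour per replicate number. The mitosis sum is 123 to 165 CPM in replicate 1 and 389 to 642 CPM in replicates 2 and 3, and Pcna is higher in replicate 1 than in every other library.

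In the comparison of high with low gel, 16 of the 35 genes fell and 0 rose with the block for the replicate number (22 at an unadjusted p under 0.05). Among all 12094 genes 8.73% were called lower and 6.72% higher in that fit. By role, 14 of 23 mitosis genes and 2 of 12 replication genes fell. The median log2 fold change was -0.72 for mitosis genes, -0.31 for replication genes and 0.00 for all genes. In the fit on the gel alone, edgeR called 0 of the 35 (0 at an unadjusted p under 0.05) and 0.091% of all genes, and DESeq2 called 0 of the 35 and 333 of all genes, with an edgeR median for the 35 of -0.57. The biological coefficient of variation was 0.115 with the block and 0.337 without it. In replicates 2 and 3 alone, with no block, 27 of the 35 fell and 0 rose, beside 14% of 12214 genes called lower. Among the replication genes Mcm2, Mcm5, Mcm6, Mcm7, Rrm1, Rrm2 and Cdc6 fell there, and among the mitosis genes all but Aurka, Kif20a and Cdc20. With the block, leaving out low replicate 2, low replicate 3, high replicate 2 or high replicate 3 left 8, 5, 5 or 7 calls, and those on Rrm2, Top2a, Cenpe and Cenpf held in all 9 fits that left out 1 library. The calls on the other 12 held in 3 of the 9 fits (Mcm7 and Birc5) to 8 of the 9 (Ccnb2).

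**Figure D2:**
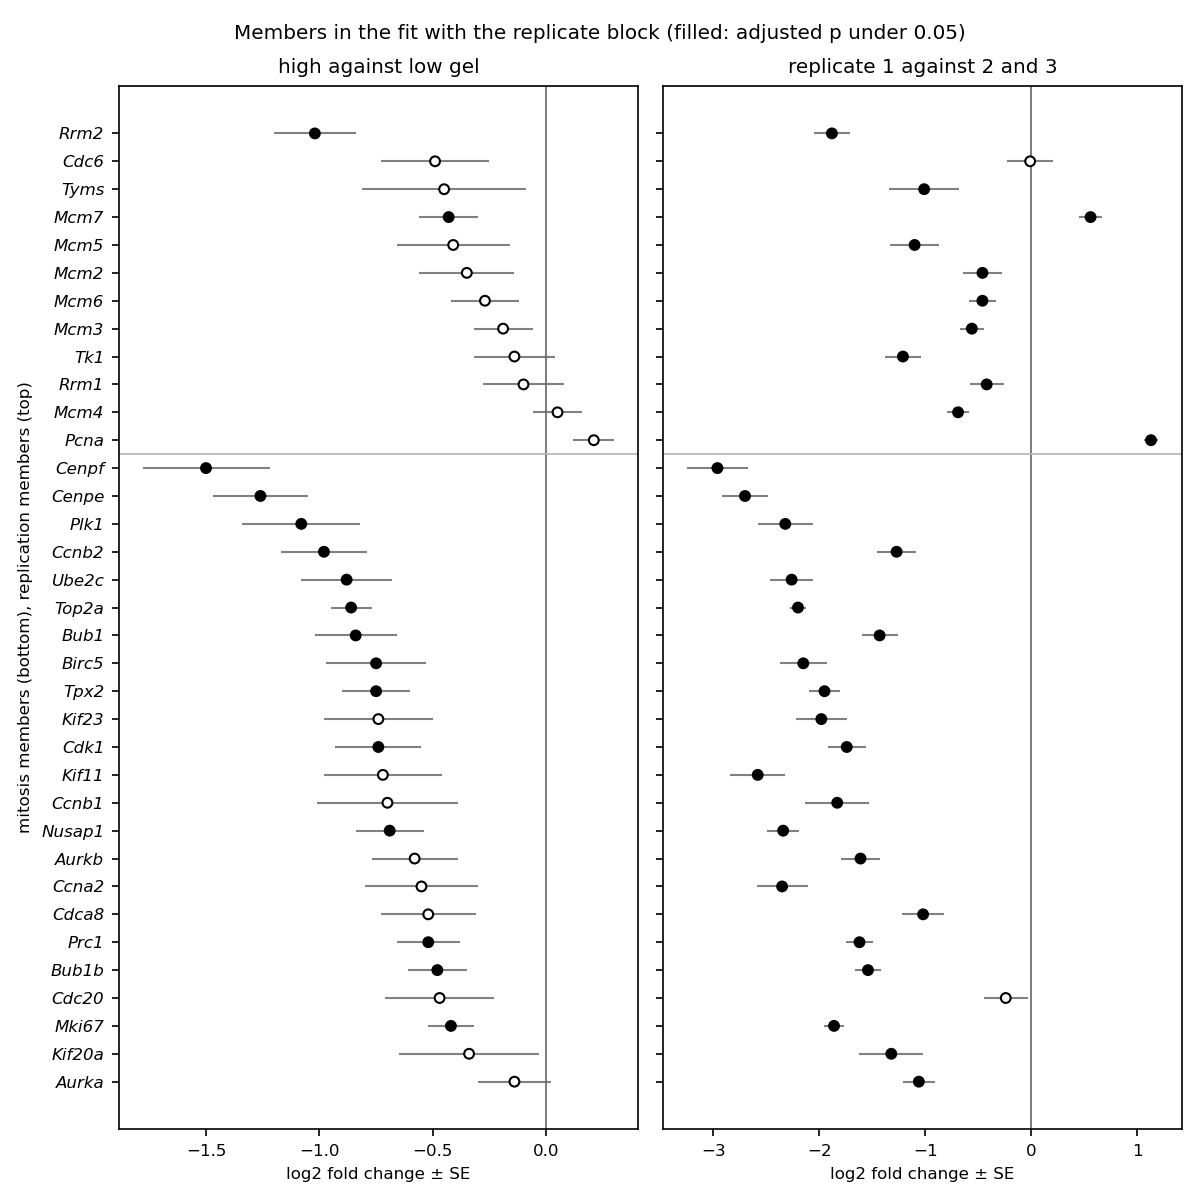
Log2 fold change ± SE of each gene in edgeR with the replicate block, replication genes above and mitosis genes below the grey line, for high against low gel (left) and replicate 1 against replicates 2 and 3 (right), with filled points at an adjusted p under 0.05. All 23 mitosis genes lie below 0 on both sides, while Pcna lies above 0 on both, at 0.21 and 1.13. In the fit on the gel alone, not drawn, 0 of the 35 genes were called in high against low.

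Most mitosis genes, and few replication genes, were lower in the high library of every replicate number. High was below low in all 3 replicate numbers for 18 of the 35 genes, 16 of mitosis and 2 of replication (Mcm7 and Rrm2), beside 24.8% of all genes. Within replicate 1 high was below low for 19 genes, 3 of replication and 16 of mitosis (50.6% of all genes). Within replicate 2 it was for 32, 9 of replication and 23 of mitosis (50.2%). Within replicate 3 it was for 34, 11 of replication and 23 of mitosis (50.6%). Both high libraries of replicates 2 and 3 lay under both low ones for 32 genes (31.8% of all genes), the exceptions being Mcm4, Pcna and Tk1. With all 3 libraries a gel, the groups did not overlap for 1 gene, Cdc20 (6.76% of all genes), since replicate 1 of the low gel lay under replicates 2 and 3 of the high gel for most of the others.

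**Figure D3:**
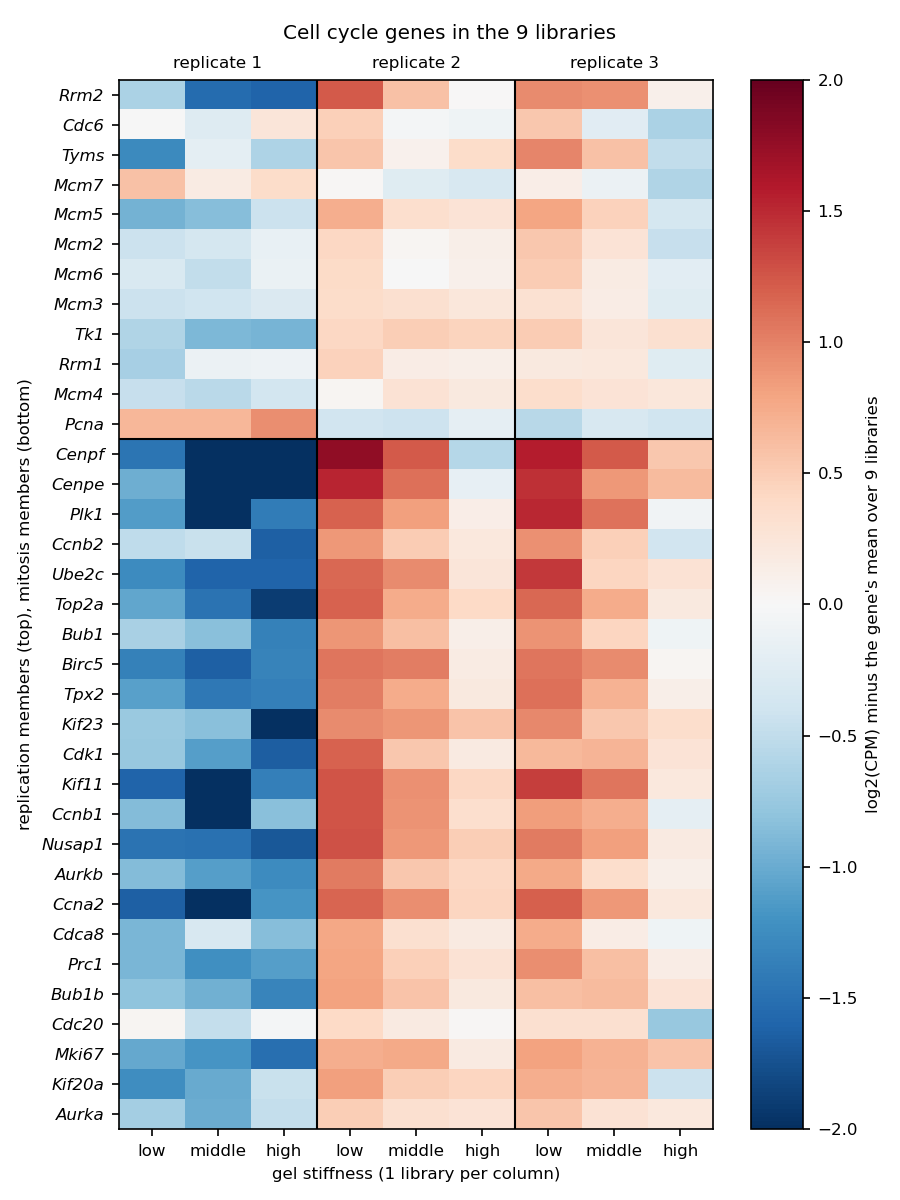
Log2 CPM of each gene minus its mean over the 9 libraries, with replication genes above and mitosis genes below the black line, and 1 column per library ordered by replicate number and then by gel, on a colour scale that ends at -2 and 2. Nearly all mitosis genes are blue in the 3 replicate 1 columns and fade from low to high gel in replicates 2 and 3, while Pcna and Mcm7 are red in replicate 1.

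Among the genes of the replicative helicase, the ring that unwinds DNA at the fork, Mcm7 was the one called between high and low gels. Mcm7 had 40.0, 26.9 and 29.2 CPM in low gels, 29.8, 22.4 and 24.5 in middle gels and 34.1, 21.2 and 17.4 in high gels. High lay under low within each number, by -0.23, -0.34 and -0.74 on the log2 scale, and replicate 1 was the highest library of every gel. Mcm7 fell in high gels (-0.43 ± 0.13, adjusted p = 0.0434), a call lost in 6 of the 9 fits that left out 1 library, and rose in replicate 1 (0.56 ± 0.11). Its exons overlap those of Ap4m1 and Cops6 on the other strand in GENCODE M21, and the labels do not say whether counting used strand, so its counts may include theirs. Mcm5, another subunit of the ring, had 5.81, 18.6 and 19.4 CPM in low gels, 6.21, 14.2 and 15.4 in middle gels and 8.32, 13.5 and 8.80 in high gels. High was above low in replicate 1 and below it in the others (0.51, -0.46 and -1.13), and Mcm5 was not called (-0.41 ± 0.25, adjusted p = 0.315), although it was in replicates 2 and 3 alone (-0.76 ± 0.17, adjusted p = 0.00584). Mcm2 had 9.12, 16.3 and 17.8 CPM in low gels, 9.62, 12.6 and 14.8 in middle gels and 11, 13.3 and 8.87 in high gels, with the same mixed order. Mcm6 had 18.2, 29.2 and 31.8 CPM in low gels, 16, 22.4 and 25.1 in middle gels and 20.5, 24.1 and 19.5 in high gels, again with high above low in replicate 1 alone. Neither passed with the block (-0.35 ± 0.21 for Mcm2 and -0.27 ± 0.15 for Mcm6), and both fell in replicates 2 and 3 alone (-0.62 ± 0.18 and -0.48 ± 0.12).

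In all 6 subunits the log2 fold change was larger in size for replicate 1 against the others than for high against low. For Mcm2 the values lay close, at -0.46 and -0.35. Mcm3 and Mcm4 are the subunits not yet described. Mcm3 had 19.2, 33.3 and 31.8 CPM in low gels, 19.5, 32.2 and 28.7 in middle gels and 21, 30.0 and 21.7 in high gels, and replicate 1 lay under all 6 other libraries. Mcm4 had 16.8, 23.7 and 29.4 CPM in low gels, 15.9, 28.2 and 27.9 in middle gels and 17.9, 26.6 and 27.2 in high gels, also lowest in replicate 1 and with no order by gel. Their high against low values of -0.19 ± 0.13 (Mcm3) and 0.05 ± 0.11 (Mcm4) did not pass, and in replicate 1 both fell (-0.56 ± 0.11 and -0.69 ± 0.10). Mcm2, Mcm5 and Mcm6 fell there too (-0.46 ± 0.18, -1.10 ± 0.23 and -0.46 ± 0.13). With 1 library left out, the replicate 1 call on Mcm2 held in 2 of 9 fits (-0.70 to -0.25), those without high replicate 1 and without high replicate 3. That on Mcm6 was lost without low replicate 1 or middle replicate 1 (-0.65 to -0.31 over the 9 fits). Cdc6, which helps load the ring onto origins, had 5.05, 7.05 and 7.30 CPM in low gels, 4.22, 4.92 and 4.31 in middle gels and 5.97, 4.75 and 3.24 in high gels. High and low overlapped through replicate 1, and Cdc6 was called neither between gels (-0.49 ± 0.24, adjusted p = 0.193) nor between replicates (-0.01 ± 0.22). It fell in high gels in replicates 2 and 3 alone (-0.84 ± 0.22, adjusted p = 0.0139).

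Pcna, the sliding clamp that holds polymerases on the template and also serves DNA repair, was higher in replicate 1. Pcna had 228, 110 and 98.4 CPM in low gels, 229, 108 and 115 in middle gels and 273, 127 and 109 in high gels. High was above low within every number, by 0.26, 0.20 and 0.15 on the log2 scale, though the groups overlapped, and replicate 1 was more than all 6 other libraries. The high against low value was 0.21 ± 0.09, adjusted p = 0.128, so it was not called, and in replicate 1 Pcna rose by 1.13 ± 0.07, a 2.18-fold higher level. Pcna has annotated pseudogenes (Pcna-ps1 and Pcna-ps2) that are not rows of the files, and whether reads are shared with them was not tested.

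Of the enzymes that supply deoxynucleotides, Rrm2 was the one called between high and low gels. Rrm2, the regulated small subunit of ribonucleotide reductase, had 6.11, 22.1 and 18.2 CPM in low gels, 3.26, 14.2 and 17.8 in middle gels and 3.13, 9.56 and 10.2 in high gels. High was below low in each number and replicate 1 was lowest in every gel. It fell in high gels (-1.02 ± 0.18, adjusted p = 0.00343), 2.03-fold lower, and in replicate 1 (-1.88 ± 0.17). Rrm1, the large subunit of the same enzyme, had 18.7, 41 and 33.9 CPM in low gels, 27.2, 32.8 and 34.4 in middle gels and 27.7, 32 and 25.1 in high gels. High was above low in replicate 1 and below it in replicates 2 and 3, and the value of -0.10 ± 0.18, adjusted p = 0.751 was not called, although it was in replicates 2 and 3 alone (-0.39 ± 0.13, adjusted p = 0.0380). Tyms, thymidylate synthase, had 1.13, 4.01 and 5.37 CPM in low gels, 2.37, 2.89 and 4.10 in middle gels and 1.78, 3.51 and 1.94 in high gels, and the gels overlapped. Tk1, thymidine kinase, had 3.54, 7.21 and 7.66 CPM in low gels, 2.89, 7.61 and 6.36 in middle gels and 2.84, 7.30 and 6.73 in high gels, where replicate 1 lay under all others and the gels showed no order. Neither was called between gels (-0.45 ± 0.36 and -0.14 ± 0.18), and in replicate 1 Rrm1, Tyms and Tk1 fell (-0.42 ± 0.16, -1.01 ± 0.33 and -1.21 ± 0.17). With 1 library left out, the replicate 1 call on Rrm1 held in 3 of 9 fits (-0.63 to -0.16), those without middle replicate 2, high replicate 1 or high replicate 3. That on Tyms was lost without low replicate 1, middle replicate 3 or high replicate 2 (-1.29 to -0.58 over the 9 fits). Tyms has an annotated pseudogene (Tyms-ps), and Tk1 overlaps Afmid on the other strand.

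Mki67 and Top2a were the most abundant mitosis genes per kilobase. Mki67, the Ki-67 antigen that coats mitotic chromosomes and is used as a proliferation marker, had 60.5, 203 and 214 CPM in low gels, 54.2, 208 and 199 in middle gels and 43.1, 139 and 183 in high gels. High was below low within each number by -0.49, -0.55 and -0.23 on the log2 scale, and the middle gel lay close to the low gel in replicates 2 and 3. Mki67 fell in high gels (-0.42 ± 0.10, adjusted p = 0.0138). Top2a, the topoisomerase that untangles sister chromatids, had 19.8, 91.4 and 90.0 CPM in low gels, 14.6, 67.7 and 67.7 in middle gels and 10.9, 53.6 and 46.5 in high gels. The gels lay in the order low, middle and high within every number, and all 3 replicate 1 libraries lay under the other 6. Top2a fell in high gels (-0.86 ± 0.09, adjusted p = 1.61e-04), 1.81-fold lower, and it was the one member called in middle against low (-0.43 ± 0.08, adjusted p = 0.0277). On the gel alone the high against low values were -0.39 ± 0.7 (adjusted p = 0.994) for Mki67 and -0.86 ± 0.8 (adjusted p = 0.95) for Top2a. In replicate 1 Mki67 was 3.64-fold lower (-1.86 ± 0.09) and Top2a 4.59-fold lower (-2.20 ± 0.08) than in replicates 2 and 3.

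The kinase Cdk1 and its cyclins drive entry into mitosis. Cdk1 had 3.69, 14 and 9.77 CPM in low gels, 2.89, 8.99 and 9.91 in middle gels and 1.99, 7.07 and 7.51 in high gels. Ccnb2, a B-type cyclin, had 5.28, 13.7 and 14.1 CPM in low gels, 5.55, 10.7 and 10.5 in middle gels and 2.42, 8.71 and 5.76 in high gels. For both, high was below low within each number and the groups overlapped through replicate 1 of the low gel, and both fell in high gels (-0.74 ± 0.19, adjusted p = 0.0208 for Cdk1 and -0.98 ± 0.19, adjusted p = 0.00652 for Ccnb2). Ccnb1, the main B-type cyclin, had 2.56, 11.2 and 8.32 CPM in low gels, 1.04, 8.68 and 7.72 in middle gels and 2.63, 5.88 and 4.14 in high gels. Ccna2, the cyclin of S phase and G2, had 4.07, 28.3 and 28.8 CPM in low gels, 3.18, 24 and 22.9 in middle gels and 5.54, 17 and 14.6 in high gels. In these 2 genes high was above low in replicate 1 and below it in replicates 2 and 3, and neither passed with the block (-0.70 ± 0.31, adjusted p = 0.147 and -0.55 ± 0.25, adjusted p = 0.168). Both fell in replicates 2 and 3 alone (-0.96 ± 0.21 and -0.85 ± 0.11). All 4 fell in replicate 1, Ccna2 the most (-2.35 ± 0.24) and Ccnb2 the least (-1.27 ± 0.18). Ccnb1 and Ccnb2 have pseudogenes and Ccna2 overlaps Exosc9 on the other strand, and whether reads are shared was not tested.

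Plk1 and the Aurora kinases act on the spindle and on chromosome attachment. Plk1, which drives spindle assembly and cytokinesis, had 2.86, 14.1 and 17.8 CPM in low gels, 1.41, 11 and 13.2 in middle gels and 2.35, 6.84 and 5.96 in high gels. High lay under low within each number, and under middle in replicates 2 and 3 but not in replicate 1, where middle was lowest. Plk1 fell in high gels (-1.08 ± 0.26, adjusted p = 0.0177). Aurka, the kinase of the spindle poles, had 5.05, 11.4 and 11.9 CPM in low gels, 4.07, 10.1 and 9.91 in middle gels and 5.83, 9.84 and 9.39 in high gels, almost level across gels and lower in replicate 1. Aurkb, the kinase of the chromosomal passenger complex, had 2.26, 8.45 and 6.93 CPM in low gels, 1.92, 5.94 and 5.26 in middle gels and 1.71, 5.49 and 4.47 in high gels. High was below low in every number for Aurkb, but it stayed above the threshold (-0.58 ± 0.19, adjusted p = 0.0579), as did Aurka (-0.14 ± 0.16, adjusted p = 0.608). Birc5 and Cdca8, survivin and borealin, are partners of Aurkb in that complex. Birc5 had 2.26, 12.1 and 12 CPM in low gels, 1.85, 11.7 and 11 in middle gels and 2.27, 6.45 and 5.89 in high gels, and Cdca8 had 3.84, 12.4 and 12.2 CPM in low gels, 5.84, 9.09 and 8.06 in middle gels and 4.05, 8.26 and 6.86 in high gels. High was close to low in replicate 1 for both, and of these Birc5 fell in high gels (-0.75 ± 0.22, adjusted p = 0.0412) while Cdca8 was not called (-0.52 ± 0.21, adjusted p = 0.126). Aurkb (-0.63 ± 0.20, adjusted p = 0.0346) and Cdca8 (-0.70 ± 0.16, adjusted p = 0.00666) fell as well in replicates 2 and 3 alone. In replicate 1 all 5 genes fell, from -1.02 ± 0.20 for Cdca8 to -2.32 ± 0.26 for Plk1.

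Bub1 and Bub1b belong to the spindle assembly checkpoint, which holds cells until chromosomes are attached, and Cdc20 and Ube2c to the ubiquitin ligase that then starts anaphase. Bub1 had 3.02, 8.78 and 8.86 CPM in low gels, 2.66, 7.21 and 6.36 in middle gels and 1.85, 5.15 and 4.47 in high gels. Bub1b had 7.16, 21.9 and 19.1 CPM in low gels, 6.44, 18.7 and 19.5 in middle gels and 5.05, 14.3 and 15.2 in high gels. High was below low within each number for both, and both fell (-0.84 ± 0.18, adjusted p = 0.0108 for Bub1 and -0.48 ± 0.13, adjusted p = 0.0255 for Bub1b). Ube2c, an E2 enzyme of the ligase, had 2.79, 14.9 and 17.8 CPM in low gels, 2.22, 12.9 and 9.02 in middle gels and 2.20, 7.97 and 8.16 in high gels, and also fell (-0.88 ± 0.20, adjusted p = 0.0134). Cdc20, the activator of the ligase, had 6.41, 8.24 and 7.78 CPM in low gels, 4.51, 7.06 and 7.79 in middle gels and 6.11, 6.39 and 3.69 in high gels. Its 3 high libraries lay under its 3 low libraries, yet it was not called (-0.47 ± 0.24, adjusted p = 0.218), and it was the mitosis gene not called between replicates (-0.24 ± 0.21). Cdc20 overlaps Elovl1, and Ube2c overlaps Tnnc2, on the other strand.

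With the block, the kinetochore genes Cenpe and Cenpf gave the largest falls among the 35 in high against low. Cenpe, a motor that carries chromosomes to the spindle equator, had 4.30, 24.2 and 23.2 CPM in low gels, 2.00, 18.2 and 15.4 in middle gels and 1.64, 7.52 and 13.1 in high gels. Cenpf, a large kinetochore and nuclear matrix protein, had 2.04, 19.2 and 16.8 CPM in low gels, 1.33, 13.1 and 13.2 in middle gels and 1.21, 3.79 and 8.16 in high gels. For both, levels went down from low to middle to high gel within every number, and all 3 replicate 1 libraries lay under the other 6. In replicate 1 that order rests on few counts, 57, 27 and 23 for Cenpe and 27, 18 and 17 for Cenpf in low, middle and high gel. Cenpf fell in high gels (-1.50 ± 0.28, adjusted p = 0.00594), to a level 2.83-fold lower than in low gels. Cenpe fell as well (-1.26 ± 0.21, adjusted p = 0.00329), 2.39-fold lower. On the gel alone the values were -1.53 ± 1.04 (adjusted p = 0.876) for Cenpf and -1.21 ± 0.97 (adjusted p = 0.921) for Cenpe. With the block and 1 library left out the value lay between -1.85 and -0.97 for Cenpf, and between -1.6 and -0.92 for Cenpe. Within replicates 1, 2 and 3 high minus low was -0.70, -2.31 and -1.03 for Cenpf, and -1.33, -1.67 and -0.81 for Cenpe. The largest such difference was that of Kif23 in replicate 1 (-1.83), Cenpf in replicate 2 and Plk1 in replicate 3 (-1.56). Only in replicate 2 did Cenpf and Cenpe have the largest differences. Other genes also passed Cenpf in replicates 1 and 3, such as Ccnb2 (-1.09 and -1.27). Several passed both genes in replicate 3, such as Tyms (-1.41). In replicate 1 Cenpf was 7.80-fold lower (-2.96 ± 0.29) and Cenpe 6.49-fold lower (-2.70 ± 0.22).

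Spindle motors and their partners completed the mitosis genes. Tpx2, which nucleates spindle microtubules, had 5.28, 22.7 and 24.1 CPM in low gels, 4.14, 18.7 and 18.2 in middle gels and 4.34, 12.8 and 12.2 in high gels. Nusap1, which bundles them around chromosomes, had 3.24, 21.7 and 18.4 CPM in low gels, 3.18, 16.4 and 15.9 in middle gels and 2.77, 12.7 and 10.2 in high gels. Prc1, which links them in the midzone, had 7.09, 23.1 and 25.3 CPM in low gels, 5.70, 18.6 and 20.3 in middle gels and 6.18, 16.3 and 14.8 in high gels. High was below low within each number for these 3, and all fell (-0.75 ± 0.15, adjusted p = 0.00807 for Tpx2, -0.69 ± 0.15, adjusted p = 0.0121 for Nusap1 and -0.52 ± 0.14, adjusted p = 0.0276 for Prc1). Kif11, the motor that pushes spindle poles apart, had 3.69, 26.9 and 29.1 CPM in low gels, 2.29, 21.2 and 23.6 in middle gels and 4.34, 14.9 and 12.9 in high gels. High was above low in replicate 1 and below it in replicates 2 and 3, as in Kif20a. Kif20a, a motor of cytokinesis, had 1.51, 6.29 and 5.91 CPM in low gels, 1.78, 5.03 and 5.74 in middle gels and 2.63, 4.81 and 2.65 in high gels. Kif23, the midzone motor of the centralspindlin complex, had 5.88, 19 and 19.2 CPM in low gels, 5.55, 18.3 and 14.4 in middle gels and 1.56, 14.6 and 12.6 in high gels. Its lowest library was high replicate 1, with 22 counts. None of the 3 motors was called with the block (-0.72 ± 0.26, adjusted p = 0.0953 for Kif11, -0.34 ± 0.31 for Kif20a and -0.74 ± 0.24, adjusted p = 0.0675 for Kif23). Kif11 (-1.0 ± 0.12, adjusted p = 8.28e-05) and Kif23 (-0.49 ± 0.14, adjusted p = 0.0259) fell in replicates 2 and 3 alone, where Kif20a was not called (-0.70 ± 0.25, adjusted p = 0.0623). Kif20a overlaps Cdc23, Nusap1 overlaps Oip5, Prc1 overlaps Rccd1 and Cdca8 overlaps 9930104L06Rik, each on the other strand.

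The middle gel lay between the others in most genes. Middle was below low in all 3 replicate numbers for 20 genes, 16 of mitosis and 4 of replication (19.6% of all genes), and high below middle for 14, 13 of mitosis and Rrm2 (17.1%). In replicates 2 and 3 the mean of high was below that of middle and the mean of middle below that of low for 32 of the 35 genes (29.6% of all genes), again all but Mcm4, Pcna and Tk1. In middle against low, Top2a fell and 0 rose with the block (1.03% of all genes called lower), 9 passed an unadjusted p under 0.05, and the median was -0.27. That call was lost when low replicate 2 or 3, any middle library or high replicate 2 was left out. On the gel alone edgeR called 0 of the 35 in middle against low (0% of all genes, 0 members at an unadjusted p under 0.05), and DESeq2 called 0 of the 35 and 48 of all genes. In high against middle 0 were called with the block (0.0165% of all genes, 13 members at an unadjusted p under 0.05, 0 members and 100 genes in all by DESeq2 with the block) and 0 without it (0% of all genes, 0 at an unadjusted p under 0.05, 0 members and 2 genes in all by DESeq2). In replicates 2 and 3 alone 8 fell in high against middle (3.26% of genes called lower) and 1 in middle against low (3.3%). The test for any difference among gels called 10 with the block (9% of all genes), 1 of replication and 9 of mitosis, and 0 on the gel alone (0% of all genes, 0 members at an unadjusted p under 0.05, 0 members and 197 genes in all by DESeq2). In replicates 2 and 3 alone it called 22 (20.4% of genes).

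Differences between replicate numbers were larger for these genes than those between gels, with a median over the 35 of -1.54 for replicate 1 against replicates 2 and 3 and of -0.52 for high against low. Replicate 1 was set against the others because earlier results of these data had shown it apart. The p-values of this contrast are thus drawn from the data that prompted it. In replicate 1 against replicates 2 and 3, 33 of the 35 were called (65.4% of all genes). Of these 31 fell and 2 rose (Pcna and Mcm7), while 32.5% of all genes fell and 32.9% rose. By role, 22 of 23 mitosis genes fell, with a median log2 fold change of -1.86, and 9 of 12 replication genes fell, with a median of -0.51, beside 0.01 for all genes. The 3 replicate 1 libraries lay under all 6 others for 27 genes, 22 of mitosis and 5 of replication (26.5% of all genes), and above them for 2 (27.7%). The mitosis sum of replicate 1 was 0.258, 0.255 and 0.306 times the mean of replicates 2 and 3 in low, middle and high gels, while the replication sum without Pcna was 0.624, 0.688 and 0.917 times. Leaving out 1 library kept 29 to 33 calls. Between replicates 3 and 2, edgeR called 0 of the 35 (0% of all genes, and 0 members at an unadjusted p under 0.05). What the replicate number stands for is not given in the labels.

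Whether the gel difference was the same in replicate 1 as in replicates 2 and 3 was tested by an interaction, with 1 library per gel on the replicate 1 side, so that the residual spread comes from replicates 2 and 3 alone. It was called for 5 of the 35 genes, beside 8.36% of all genes (2.52% with a more positive and 5.84% with a more negative difference in replicate 1). The high against low difference was more positive in replicate 1 for Ccna2 (1.30 ± 0.29, adjusted p = 0.0172), Rrm1 (0.96 ± 0.24, adjusted p = 0.0310), Kif11 (1.23 ± 0.32, adjusted p = 0.0336) and Mcm5 (1.28 ± 0.36, adjusted p = 0.0477). It was more negative there for Kif23 (-1.42 ± 0.39, adjusted p = 0.0453). For Top2a the value was 0.00 ± 0.13. The median over the 35 was 0.58, beside -0.01 for all genes. The count was 2 without low replicate 2 or low replicate 3, 1 without middle replicate 2 or middle replicate 3 and 9 without high replicate 2, and 2 by DESeq2. With upper-quartile scaling it was 4, all with a more positive difference, so the call on Kif23 was lost there, as it was by DESeq2 and in each of those 5 fits. Within replicates 1, 2 and 3 the median high minus low difference was 0.20, -0.28 and -0.72 for replication genes, and -0.28, -0.76 and -0.97 for mitosis genes.

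**Figure D4:**
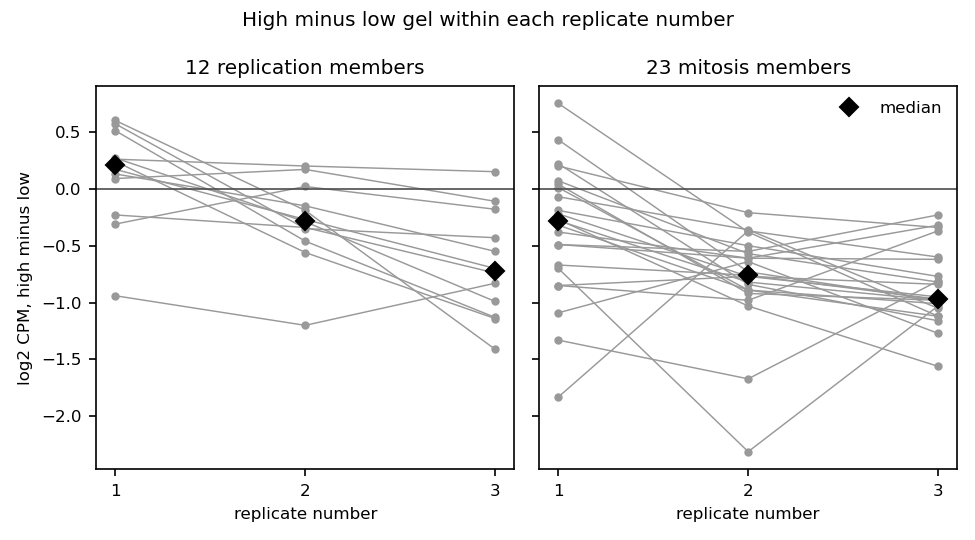
High minus low gel in log2 CPM within each replicate number, for the 12 replication genes (left) and the 23 mitosis genes (right), with grey lines joining the values of 1 gene and black diamonds at the median. The replication median is 0.20 in replicate 1 and below 0 in the other two, while the mitosis median is below 0 in all 3.

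Other genes of the same pathways were counted in high against low with the block, where the gel alone called 0 in every list. Their counts stand beside 8.73% of all genes called lower and 6.72% called higher. Of 40 further spindle and kinetochore genes 15 fell and 0 rose (median -0.57). Among them were the kinetochore scaffold Knl1 (log2 fold change -1.46 ± 0.20), the phosphatase that activates Cdk1 Cdc25b (log2 fold change -0.96 ± 0.17), the spindle motor Kif15 (log2 fold change -1.07 ± 0.21) and the passenger complex scaffold Incenp (log2 fold change -0.46 ± 0.09). Of 13 condensin and cohesin genes 4 fell and 0 rose (median -0.24), with Ncapg2 at -0.87 ± 0.08, Smc2 at -0.54 ± 0.12, Smc4 at -0.46 ± 0.10 and Ncapg at -1.01 ± 0.29. Of 18 genes of origin licensing and firing 3 fell and 0 rose (median -0.12), namely Mcm10 (-0.80 ± 0.19), the kinase gene Cdc7 (-0.91 ± 0.22) and the loader Cdt1 (-0.45 ± 0.11). Of 24 polymerase and fork genes 5 fell and 1 rose (median -0.10). They included the maintenance methyltransferase Dnmt1 (-0.69 ± 0.10) and the polymerase genes Pole (-1.38 ± 0.23) and Pola1 (-0.51 ± 0.14), while the nuclease gene Dna2 rose (0.56 ± 0.10). Of 14 genes of nucleotide supply 2 fell, among them the kinase gene Dck (-0.40 ± 0.08), and 0 rose (median -0.03).

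Regulators of the cycle gave mixed counts in that comparison, again beside 8.73% of all genes called lower and 6.72% called higher. Of 26 regulators of the step from G1 to S 6 fell and 1 rose (median -0.24), with the cyclins Ccnd1 at -1.36 ± 0.22 and Ccne2 at -1.02 ± 0.30, the factor E2f2 at -0.63 ± 0.12 and Foxm1, an activator of mitosis genes, at -0.76 ± 0.22. The 1 that rose was another E2F factor gene, E2f1 (0.48 ± 0.15, adjusted p = 0.0469). Of 6 tested genes for inhibitors of cyclin-dependent kinases, Cdkn1a, which encodes p21, rose (0.43 ± 0.13, adjusted p = 0.0448) and 0 fell (median -0.16). Cdkn1a had 245, 178 and 198 CPM in low gels, 211, 261 and 242 in middle gels and 268, 264 and 304 in high gels, and all 3 high libraries lay above all 3 low ones. Of 12 anti-proliferative genes the stress gene Gadd45a (0.69 ± 0.09) and Btg1 (0.39 ± 0.09) rose, and Gadd45g (-0.55 ± 0.12) and Ccng2 (-0.34 ± 0.10) fell (median -0.02). Of 24 genes of replication stress and repair 4 fell and 0 rose (median -0.38), namely Rad54l (-0.85 ± 0.20), Timeless (-0.82 ± 0.20), Clspn (-0.92 ± 0.24) and Chek2 (-0.60 ± 0.18).

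In replicate 1 against replicates 2 and 3 32.5% of all genes were called lower and 32.9% higher, and the lists differed in their counts. Of the 40 spindle and kinetochore genes 37 fell and 1 rose (median -1.36), and of the 26 regulators of G1 to S 22 fell and 2 rose (median -0.78). Of the 18 licensing and firing genes 1 fell and 8 rose (median 0.33). Of the 24 polymerase and fork genes 8 fell and 6 rose (median -0.02), and of the 14 nucleotide supply genes 3 fell and 6 rose (median 0.14). Condensin and cohesin genes had 8 of 13 fall and 1 rise, and genes of replication stress and repair 11 of 24 fall and 5 rise.

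Markers of marrow cells were counted in the same comparisons. There 8.73% of all genes were called lower and 6.72% higher in high gels, and 32.5% lower and 32.9% higher in replicate 1. The 10 markers of early progenitors and promyelocytes, which are dividing precursors, summed to 68.8, 237 and 247 CPM in low gels, 24, 220 and 207 in middle gels and 28.4, 104 and 101 in high gels. High was under low within every number, and replicate 1 was lowest in every gel, as for the mitosis sum. Both orders also held for the sums of lymphocyte markers and of dendritic cell markers, but not for the other marker lists. Dendritic cell markers summed to 95.7, 104 and 100 CPM in low gels and 78.2, 93.1 and 84.7 in high gels. With the block 4 of the 10 fell in high gels and 0 rose (Elane -1.77 ± 0.30, Myb -1.42 ± 0.19, Ctsg -1.16 ± 0.32 and Prtn3 -1.08 ± 0.29), with a median of -1.12, and 9 fell in replicate 1 with a median of -2.60. The most abundant of them, Mpo, had 12.2, 83.4 and 89.2 CPM in low gels, 2.07, 83.9 and 66.1 in middle gels and 3.27, 21.8 and 27.8 in high gels. The part of these cells in the gel and replicate differences of the cell cycle genes was not tested.

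The 15 neutrophil markers summed to 3650, 25000 and 22000 CPM in low gels, 5060, 19700 and 22500 in middle gels and 5180, 17100 and 17700 in high gels, with S100a8 (mean 3340 CPM) and S100a9 (3110 CPM) the most abundant. Of them 5 fell and 2 rose in high gels, and 14 fell in replicate 1. The 14 macrophage markers summed to 14500, 20900 and 19500 CPM in low gels, 16300, 17800 and 18600 in middle gels and 18000, 19400 and 17600 in high gels, with Lyz2 (mean 10300 CPM), which neutrophils also express, and Gpnmb (3120 CPM) the most abundant. Of these 5 fell and 4 rose in high gels, and 9 fell and 2 rose in replicate 1. The lymphocyte markers summed to 35.1, 130 and 139 CPM in low gels, 21.4, 100 and 124 in middle gels and 23.5, 97.4 and 59.8 in high gels, led by Cd79a and Ms4a1. Summed levels over all libraries were 69.5 to 104 CPM for dendritic cell markers, led by Itgax and Ccr7, and 219 to 718 for erythroid markers, led by Hbb-bs and Hba-a1. They were 23.5 to 163 CPM for mast cell and basophil markers, led by Hdc and Prss34, and 37.3 to 72.6 for stromal markers, led by Pecam1 and Col1a1. With the block 1 of 7 tested lymphocyte, 1 of 7 dendritic cell and 2 of 7 stromal markers fell in high gels, and 0 rose. Of 6 erythroid and 7 mast cell and basophil markers tested, 0 were called there. No marker was at 0 in every library, and the part of any of these cells in the results was not tested.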

How the data were processed

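The deposited counts are raw counts of reads per gene for each of the 9 libraries, made by the authors with cutadapt 1.9.1, HISAT2 2.0.1 and HTSeq 0.6.1 on GRCm39 per the submitters' processing notes, which also name DESeq2 without a version. Library preparation was stranded and selected poly(A), per the labels' protocols. The labels name neither the annotation release nor the strand setting of the counting. The authors' FPKM came out within 0.005 of values computed here from counts and sizes, and played no further part. Another deposited column, the exonic size in bases, gave the authors' gene length for CPM per kb.

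Counts were tested with edgeR 4.0.16 in R 4.3.3 (TMM, filterByExpr with a minimum count of 10, robust quasi-likelihood fit of all 9 libraries, two-sided tests), and scripts were tested on simulated data. Log2 values of single libraries are of CPM with a prior count of 2, and ± is the standard error of a log2 fold change. Replicate numbers come from the titles. After removal of gel means, libraries of the same number in different gels correlated at 0.765 to 0.856 for replicate 1 and 0.595 to 0.673 for replicates 2 and 3. Replicate 2 of 1 gel and replicate 3 of another correlated at 0.552 to 0.698, and replicate 1 with either at -0.777 to -0.65. These values set replicate 1 apart, but they do not show that the numbers pair libraries of replicates 2 and 3, as the block assumes. All 35 genes are accounted for, with values of every library for those called in any comparison and for the 3 most abundant of each role. From each pathway list up to 4 called genes with the smallest p in high against low are named, and from each marker list the 2 most abundant. E2f1 is named besides, as the 1 regulator of G1 to S that rose. The genes and lists were chosen with earlier results of these data known. Alternatives were DESeq2 1.42.0, RLE and upper-quartile scaling, no filter on low counts and leaving out libraries. RefSeq promoters and GENCODE M21 overlaps are of GRCm38, another build than that of the counts, so no coordinates on the counts' build are given. Figures were drawn with matplotlib 3.10.9 in Python 3.11.15.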

Additional observations from a re-analysis of the deposited data

Results flagged for a closer look

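For 5 of the 35 genes the high against low difference in replicate 1 differed from that in replicates 2 and 3 by the interaction test (edgeR, adjusted p under 0.05 over all genes, 8.36% of which were called). Given as log2 difference of differences, replicate 1 minus replicates 2 and 3, the value was 1.30 for the cyclin gene Ccna2, 1.28 for the helicase gene Mcm5, 1.23 for the spindle motor gene Kif11 and 0.96 for the ribonucleotide reductase gene Rrm1. In these 4 the high library lay above the low library in replicate 1 and below it in replicates 2 and 3. For Kif23, a motor gene of the spindle midzone, the value was -1.42, and high lay under low in every replicate number. Kif23 had 22 counts in high replicate 1 and 78 in low replicate 1. Each of the 5 values rests on 1 high and 1 low library in replicate 1, with the residual spread taken from replicates 2 and 3 alone. The count was 1 to 9 with 1 library of replicate 2 or 3 left out, and the call on Kif23 was lost with upper-quartile scaling.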

How the results depend on the processing

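Without a replicate block, the counts of 0 called members in high against low, middle against low, high against middle and any difference among gels stayed at 0 under RLE and upper-quartile scaling, no filter on low counts and DESeq2. With the replicate block they were 16, 1, 0 and 10, with RLE or upper-quartile scaling also 16, 1, 0 and 10, and with DESeq2 17, 1, 0 and 12, and the block with another scaling or tool was chosen after the data were seen. Over all fits that left out libraries, with or without the block, the counts ranged from 0 to 30 for high against low, 0 to 1 for middle against low, 0 to 10 for high against middle and 0 to 23 for any difference. In replicates 2 and 3 alone without the block they were 27, 1, 8 and 22, and with it 30, 1, 10 and 23. With the block and 1 library left out, high against low gave 22, 8 and 5 (without low replicate 1, 2 and 3), 16, 13 and 14 (middle) and 23, 5 and 7 (high), and any difference 14, 1 and 3 (low), 7, 6 and 4 (middle) and 16, 2 and 4 (high). High against middle gave 1 without low replicate 1, 3 without high replicate 1 and 0 otherwise. The causes were not tested. The 33 calls between replicates were 31 to 33 under other scalings, tools or filters, and 29 to 33 with 1 library left out. The 5 interaction calls became 4 with upper-quartile scaling, 8 with no filter and 2 by DESeq2, and 1 to 9 with 1 library left out, while fits without a replicate 1 library were not run. With the block and 1 library left out, no called value in high against low or in replicate 1 against replicates 2 and 3 changed direction. Without the block, the median for the 35 in middle against low turned to 0.04 without middle replicate 1. Counts of 14 to 37 in replicate 1 for genes such as Ccnb1, Tyms and Cenpf limit the precision of their values.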
